A study of Rattus norvegicus with 18 samples.

Results

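Txnip and the arrestin-domain genes Arrdc1, Arrdc2, Arrdc3 and Arrdc4 encode alpha-arrestins, and they were grouped here because several of them lost signal when cultured neurons were depolarized. Arrdc5 was not in the group. It was listed with other arrestin-fold genes and was not among those tested. They were found as every probe set that the platform annotation assigns to 1 of these 5 symbols, which gave 5 of 14218 annotated genes and 6 of 31099 probe sets (short oligonucleotide groups read out as 1 signal). All 5 genes passed a filter on dim probe sets, with 5 of their 6 probe sets. The members were chosen by their signals at 0, 1 and 6 h of KCl, so changes after KCl are given as descriptions without a test. Differences between the RNAi and control arms were not used in the choice and were tested, though they share its arrays.

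The samples were rat hippocampal neurons in dissociated culture, read on 18 Affymetrix arrays with 3 arrays in each of 6 groups. The RNAi groups carried lentiviral shRNAs against MEF2A and MEF2D, added on day 3 of culture, and their RNA was taken at 0, 1 or 6 h of 55 mM KCl, a depolarizing dose. The control groups carried lentiviral control shRNAs added on the same day and were taken at the same times. All 6 groups, the 0 h groups included, had been given AP5, a blocker of NMDA receptors, and TTX, a blocker of sodium channels, for 1 h on day 10 before KCl. The comparison between arms asked which genes that respond to activity depend on the MEF2 transcription factors. By their labels the arrays are biological replicates, with nothing further on the cultures, so p-values measure the spread between these arrays. The reading was on bulk cultures, in which fewer cells of a type and less RNA per cell cannot be told apart.

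Alpha-arrestins are adaptor proteins with the same fold as the arrestins that bind activated receptors. Most carry short proline-rich PPxY motifs that recruit ubiquitin ligases of the NEDD4 family to membrane proteins, which are then internalised or sorted. Txnip, the thioredoxin-interacting protein, also binds thioredoxin and lowers glucose uptake by promoting internalisation of glucose transporters, and its transcript is known for following glucose and stress in many tissues, brain included. In human and mouse cells the glucose-sensing factor MondoA, the product of Mlxip, binds the promoters of Txnip and Arrdc4 together with its partner Mlx.

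The promoter windows are shown as a description of sequence. Txnip, the member that fell most at 1 h, had no window, so a relation of these letters to the fall was not tested. Windows of 4 of the 5 genes, Arrdc1, Arrdc2, Arrdc3 and Arrdc4, were matched in the RefSeq promoter table used here (assembly GRCr8), and the 250 bases before the start were searched on both strands. The motifs were the E-box CACGTG, bound by Mlx dimers among other factors, the CCAAT box, the CRE core TGACG and the FoxO core GTAAACA. For MEF2 the letters searched were CTA and TAG with any 4 bases between them, and MEF2 sites with other letters were not searched. Capitals below mark the E-box and the CCAAT boxes, a CCAAT box on the other strand reading ATTGG. The windows of Arrdc4 (chr1:131793426-131793675, minus strand) and Arrdc3 (chr2:12872952-12873201, plus strand) are printed 5′ to 3′.
Arrdc4: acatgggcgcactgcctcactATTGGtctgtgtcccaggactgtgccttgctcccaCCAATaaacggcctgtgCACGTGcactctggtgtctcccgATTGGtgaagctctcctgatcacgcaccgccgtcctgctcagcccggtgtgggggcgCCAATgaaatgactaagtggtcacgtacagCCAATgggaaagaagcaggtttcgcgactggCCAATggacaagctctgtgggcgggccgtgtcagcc
Arrdc3: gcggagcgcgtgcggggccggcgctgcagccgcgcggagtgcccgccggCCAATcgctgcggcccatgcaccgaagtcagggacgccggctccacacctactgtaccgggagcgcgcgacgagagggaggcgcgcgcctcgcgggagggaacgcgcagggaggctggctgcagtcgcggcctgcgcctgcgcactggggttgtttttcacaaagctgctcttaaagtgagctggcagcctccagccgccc
Arrdc4 had 1 E-box, at bases -177 to -172 from the start, and 6 CCAAT boxes. An E-box was present in 5.59% of all 33469 windows of this length and 6 or more CCAAT boxes in 0.0329% of them. Arrdc3 had 1 CCAAT box, a motif present in 34% of windows, and Arrdc2 had 2, reached by 9.42% of windows. The only match of Arrdc1 was 1 CRE core at bases -15 to -11, a motif found in 18.2% of windows. No FoxO core, in 3.21% of windows, and no match to the MEF2 letters searched, in 3.41%, was found in these 4 windows. This says only that those letters are not there. Each match is a description of letters, not of a bound site.

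Array medians ranged from 240 to 248, and 10934 genes passed the filter and were tested. Correlations within a group, over the log2 signals of these genes, ran from 0.987 to 0.996. Mef2a, the first target of the shRNAs, had signals of 443 to 620 on the RNAi arrays, against 1534 to 2331 on the control arrays. Mef2d, the other target, ran from 264 to 387 on the RNAi arrays and from 380 to 591 on the control arrays, and the arms did not overlap at any 1 time. All 10 neuronal markers examined passed the filter, Stmn2 and Gap43 being the brightest, as did 5 of 5 hippocampal excitatory markers led by Neurod6 and Slc17a7. All 8 astrocyte markers passed as well, led by Slc1a3 and Gfap, so the cultures were not neurons alone. Of the other lists, 4 of 5 inhibitory neuron, 5 of 9 oligodendrocyte, 6 of 8 microglial, 7 of 9 endothelial and fibroblast and 6 of 6 proliferation markers passed.

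Txnip lost most of its signal within 1 h. In the RNAi arm its signals were 3433, 3115 and 3512 at 0 h, 1425, 733 and 799 at 1 h, and 1281, 875 and 792 at 6 h in replicates 1, 2 and 3. In the control arm they were 3278, 2839 and 3682 at 0 h, 954, 545 and 584 at 1 h, and 563, 539 and 470 at 6 h. Every array in KCl was below every 0 h array of its arm, and replicate 1 was the highest array in KCl in each group. Txnip stood at 28.1% of its 0 h mean in the RNAi arm and 20.7% in the control arm after 1 h, and at 28.7% and 16.1% after 6 h (RNAi and control arms; means of log2 signals, n = 3). On the log2 scale the 1 h change was -1.83 in the RNAi arm and -2.27 in the control arm (SE 0.24 each), in both arms the most negative of all 10934 genes. On the same scale, the fall at 1 h made up 102% of that at 6 h in the RNAi arm and 86.2% in the control arm.

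Arrdc3, an adaptor known from human cells for sending the beta-2 adrenergic receptor to ubiquitin ligases, lost signal in steps. RNAi arrays gave 1950, 982 and 1353 at 0 h, 585, 506 and 509 at 1 h, and 456, 379 and 326 at 6 h. Control arrays gave 2632, 1692 and 2031 at 0 h, 1180, 844 and 857 at 1 h, and 616, 401 and 461 at 6 h. No array at a later time overlapped with an earlier time of its own arm, and replicate 1 was the highest in each of the 6 groups. The log2 change was -1.37 in the RNAi arm and -1.14 in the control arm at 1 h, and -1.84 and -2.10 at 6 h (SE 0.23 each). On the log2 scale, 74.3% of the 6 h fall was present at 1 h in the RNAi arm and 54.0% in the control arm.

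The dimmer Arrdc3 probe set, which failed the filter, ran from 66.3 to 111 on the RNAi arrays and from 76.7 to 191 on the control arrays, near the floor of 72.6 to which dim signals were raised. Its log2 change at 6 h was -0.43 in the RNAi arm and -0.87 in the control arm. Averaging both Arrdc3 probe sets gave falls of -0.81 at 1 h and -1.14 at 6 h in the RNAi arm, over 1.5 times smaller than the brighter probe set alone. In the control arm it gave -1.49 at 6 h and, between 1 h and 6 h, -0.63, against -2.10 and -0.97 for the brighter one.

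Arrdc4, which like Txnip is known to lower glucose uptake in cultured cells, fell mostly after 1 h. Its RNAi arrays read 995, 903 and 1151 at 0 h, 776, 659 and 716 at 1 h, and 430, 284 and 277 at 6 h. Its control arrays read 785, 782 and 812 at 0 h, 553, 495 and 515 at 1 h, and 112, 126 and 124 at 6 h. No 2 of the 6 groups overlapped, and at each time every RNAi array was above every control array. The 1 h change was -0.50 in the RNAi arm and -0.61 in the control arm, and the 6 h change -1.64 and -2.72 (SE 0.13 each), the control value being the most negative of all 10934 genes at 6 h. After 6 h Arrdc4 kept 32.0% of its 0 h mean in the RNAi arm and 15.2% in the control arm. On the log2 scale, only 30.4% of the 6 h fall was present at 1 h in the RNAi arm and 22.4% in the control arm. All 3 control arrays at 6 h lay below the 40th percentile of their own array (154 to 164) but above the floor.

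Arrdc2 is one of the less studied members. Its signals were 546, 518 and 480 at 0 h, 543, 517 and 441 at 1 h, and 495, 503.6 and 478 at 6 h in the RNAi arm. The control arm had 806, 650 and 594 at 0 h, 641, 715 and 601 at 1 h, and 506, 578 and 553 at 6 h. Within the RNAi arm the times overlapped throughout, while the 3 control arrays at 6 h were all below the 0 h and 1 h control arrays. The 6 h change was -0.06 in the RNAi arm and -0.31 in the control arm (SE 0.11 each).

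Arrdc1, known in human cells for recruiting Tsg101 and releasing small vesicles from the plasma membrane, differed least among groups. RNAi arrays had 700, 794 and 808 at 0 h, 650, 843 and 794 at 1 h, and 589, 717 and 778 at 6 h. Control arrays had 639, 837 and 779 at 0 h, 614, 722 and 774 at 1 h, and 559, 692 and 709 at 6 h. All neighbouring groups overlapped, and replicate 1 was the lowest array of every group. The 6 h change was -0.15 in the RNAi arm and -0.20 in the control arm (SE 0.14 each), with a 95% interval from -0.44 to 0.14 in the RNAi arm and from -0.49 to 0.09 in the control arm.

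**Figure D1:**
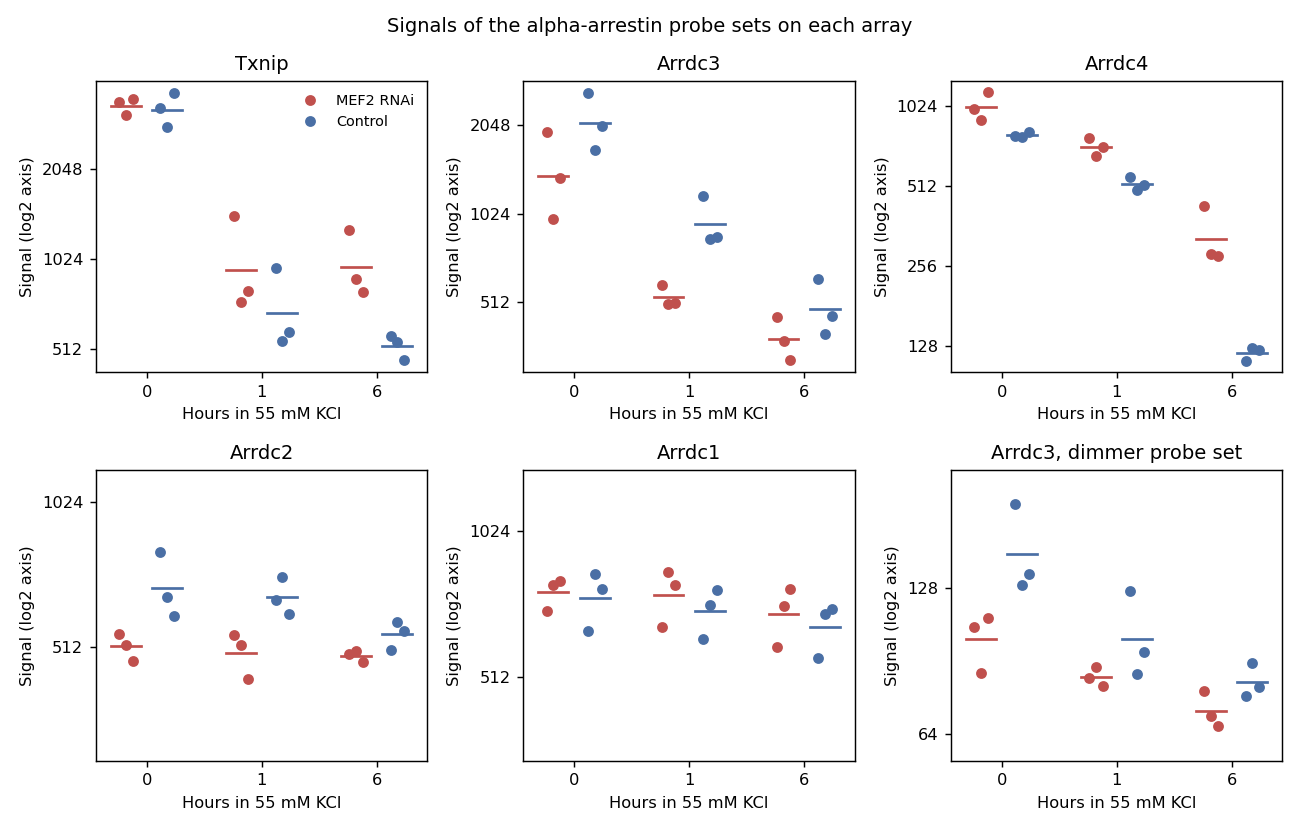
Signal of each probe set (log2 axis) on each array by hours in 55 mM KCl, RNAi arrays in red and control arrays in blue; each point is 1 array, replicates 1 to 3 run left to right, and bars are means of log2 signal. Txnip, Arrdc3 and Arrdc4 lose signal in KCl, Arrdc1 and Arrdc2 little, and all Arrdc4 groups are apart.

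Counted over the group, 3 of the 5 genes were lower without overlap after 1 h in the RNAi arm, where 18.2% of tested genes were, and 3 of 5 in the control arm, where 10.5% were. After 6 h this held for 3 of 5 in the RNAi arm and 4 of 5 in the control arm, beside 29.2% and 29.8% of tested genes (RNAi and control arms). The genes were chosen for this fall, so nothing is read from these shares. The median 6 h change of the 5 genes was -1.64 in the RNAi arm and -2.10 in the control arm, and that of all tested genes -0.02 in each arm. Between 1 h and 6 h, Txnip changed by 0.03 in the RNAi arm and -0.36 in the control arm, Arrdc3 by -0.47 and -0.97, and Arrdc4 by -1.14 and -2.11. Most of the Txnip fall thus came before 1 h and most of the Arrdc4 fall after it, in both arms.

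**Figure D2:**
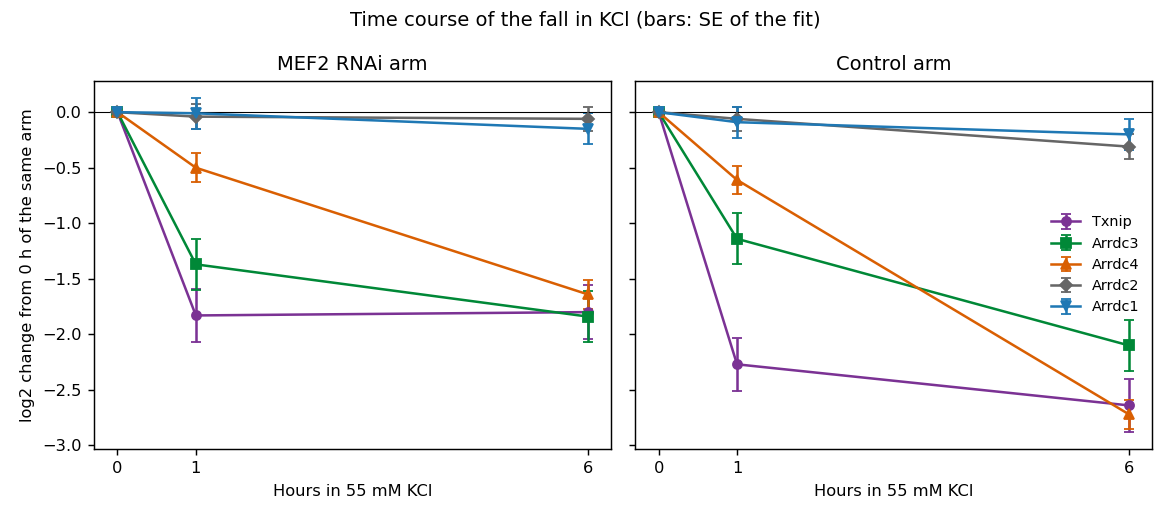
Log2 change from 0 h of the same arm against hours in 55 mM KCl, RNAi arm on the left and control arm on the right; points are differences of means of 3 arrays and bars are the SE of the fit. Txnip is near its 6 h value by 1 h, Arrdc3 goes on falling, and Arrdc4 in the control arm is at -0.61 at 1 h and -2.72 at 6 h.

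Set in order of level, Txnip was highest in the 0 h groups, RNAi then control, which overlapped, and above RNAi 6 h, RNAi 1 h, control 1 h and control 6 h, each of which overlapped with the next. Arrdc3 ran from control 0 h through RNAi 0 h to control 1 h with overlap between neighbours, stepped down without overlap to RNAi 1 h, and ended with control 6 h and RNAi 6 h, again overlapping. For Arrdc4 the order was RNAi 0 h, control 0 h, RNAi 1 h, control 1 h, RNAi 6 h and control 6 h, with a gap at every step. Levels are not compared between genes, since probe sets differ in brightness.

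The RNAi arm was tested against the control arm at each time with limma, adjusted over all 10934 genes. Arrdc4 was higher in the RNAi arm in KCl and Txnip was higher at 6 h, whereas Arrdc2 was lower at 0 h and 1 h and Arrdc3 lower at 1 h. Arrdc1 did not pass at any time. At 0 h, 1 of the 5 genes was called (adjusted p under 0.05), with 14.9% of all tested genes called. At 1 h 3 genes were called, with 17.1% of tested genes, and at 6 h 2 genes, with 17.2%. Averaged over the 3 times, 4 of the 5 were called, with 37.6% of tested genes called. Of the 4, 2 were higher and 2 lower, beside 20.9% of tested genes higher and 16.6% lower. For overlap between arms and for counts of pairs, the share over all tested genes is not given, so both are descriptions only.

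Arrdc4 at 6 h showed the widest gap among the grouped genes, with 277 to 430 on the RNAi arrays and 112 to 126 on the control arrays. The log2 difference of 1.43 ± 0.13 (SE) is a 2.69-fold higher signal with RNAi (limma, adjusted p = 6.04e-06), and 3 genes of 10934 had a larger rise. At 1 h the difference was 0.46 ± 0.13 (adjusted p = 0.026), with no overlap between arms. This call was lost on leaving out any 1 of 4 of the 6 arrays compared, RNAi replicates 1 and 3 and control replicates 2 and 3 (adjusted p 0.0606 to 0.104), and without the filter on dim probe sets (adjusted p = 0.0514). With all arrays and the replicate block it held (adjusted p = 0.0104). At 0 h Arrdc4 was 0.35 ± 0.13 higher, short of the threshold (adjusted p = 0.0914) but past it with the replicate number as a block (adjusted p = 0.0448). Arrdc4 was higher in the RNAi array in 9 of 9 pairs of same-numbered arrays, and averaged over times it rose by 0.75 ± 0.08 (adjusted p = 1.95e-06). The 9 pairs are 3 replicate numbers at 3 times each, and same-numbered arrays deviated together, so the pairs are not independent.

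Txnip did not separate the arms in silenced neurons, where the difference was 0.04 ± 0.24 (SE), with a 95% interval from -0.47 to 0.56 (limma, adjusted p = 0.934). At 1 h it was 0.49 ± 0.24 (adjusted p = 0.195, and 0.0426 with the replicate block), with 0.19 (adjusted p = 0.674) without RNAi replicate 1 and 0.74 (adjusted p = 0.0566) without control replicate 1. Within same-numbered pairs 1, 2 and 3 the 1 h differences were 0.58, 0.43 and 0.45. At 6 h all RNAi arrays were above all control arrays, 792 to 1281 against 470 to 563, a difference of 0.88 ± 0.24 or 1.84-fold (adjusted p = 0.0202). Replicate 1 of the RNAi arm was the highest array at 6 h. Without it the difference was 0.67 (adjusted p = 0.106), and without control replicate 3 it was 0.80 (adjusted p = 0.0739). With all arrays and the replicate block the 6 h call held (adjusted p = 0.00121). The averaged difference of 0.47 ± 0.14 passed (adjusted p = 0.0144), and same-numbered pairs had the higher value with RNAi in 8 of 9 cases.

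Arrdc3 ran the other way, lower with RNAi in 9 of 9 same-numbered pairs. At 1 h its RNAi arrays at 506 to 585 were all below the control arrays at 844 to 1180, a difference of -0.83 ± 0.23 (SE; limma, adjusted p = 0.0201). The call was lost without RNAi replicate 2 or 3 or control replicate 1 (adjusted p 0.062 to 0.0965). With all arrays and the replicate block it held (adjusted p = 6.37e-05). The 0 h difference of -0.60 ± 0.23 fell short (adjusted p = 0.0942) but passed with the replicate block (adjusted p = 0.00109), without RNAi replicate 1 (-0.85, adjusted p = 0.0199) and with both probe sets averaged (adjusted p = 0.0325). Without RNAi replicate 2 it shrank to -0.36 (adjusted p = 0.358). Within same-numbered pairs 1, 2 and 3 the 0 h differences were -0.43, -0.79 and -0.59. At 6 h the arms overlapped with a difference of -0.34 ± 0.23 (adjusted p = 0.368, and 0.0357 with the replicate block), and with values from -0.47 to -0.17 when single arrays were left out, the smallest without control replicate 1 (adjusted p = 0.728). Averaged over times Arrdc3 fell by 0.59 ± 0.13 (adjusted p = 0.00226). The dimmer probe set, fitted over all 31099 probe sets without a filter, gave -0.58 ± 0.16 at 0 h (adjusted p = 0.0461) and -0.26 ± 0.16 at 1 h (adjusted p = 0.476).

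Arrdc2 was also lower with RNAi in 9 of 9 pairs, and the arms did not overlap at any time. At 6 h the arms were barely apart, the highest RNAi array reading 503.6 and the lowest control array 506.3. The difference was -0.40 ± 0.11 (SE) at 0 h (limma, adjusted p = 0.0184), -0.38 ± 0.11 at 1 h (adjusted p = 0.0201) and -0.15 ± 0.11 at 6 h (adjusted p = 0.398). The 0 h call was lost without RNAi replicate 3 (adjusted p = 0.0786) or control replicate 1 (adjusted p = 0.0785), and the 1 h call without RNAi replicate 3 (adjusted p = 0.103) or control replicate 2 (adjusted p = 0.0903). Both were lost when only the groups compared were fitted, with adjusted p 0.0827 at 0 h and 0.0507 at 1 h. Both held with all arrays and the replicate block, with adjusted p 0.00318 at 0 h and 0.00384 at 1 h. Averaged over times Arrdc2 fell by 0.31 ± 0.06 (adjusted p = 0.000838). Arrdc1 differed by 0.04 to 0.11 at the 3 times, and its averaged difference was 0.08 ± 0.08 with a 95% interval from -0.09 to 0.25 (adjusted p = 0.471).

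**Figure D3:**
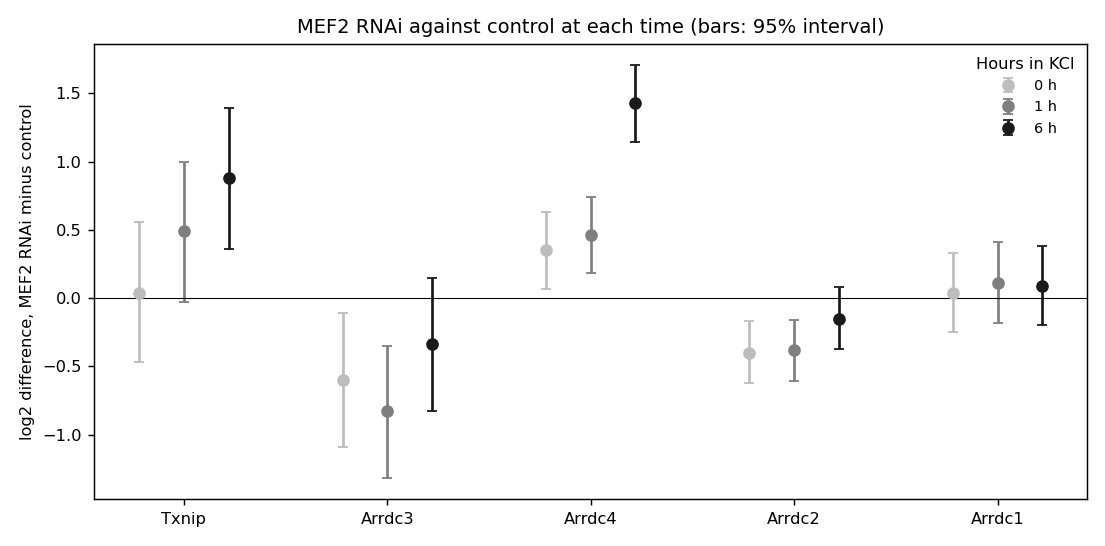
Log2 difference, RNAi minus control, of each gene at 0, 1 and 6 h of KCl; points are fitted differences (3 arrays a group) and bars are 95% intervals. Arrdc4 and Txnip lie highest at 6 h (1.43 and 0.88), Arrdc3 and Arrdc2 lie below 0 at each time, and Arrdc1 stays near 0.

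Markers of other cells moved with the RNAi arm too. Averaged over times, 5 of 8 astrocyte markers were called higher and none lower, beside 20.9% of tested genes higher and 16.6% lower. The summed signal of the astrocyte markers at 6 h was 43987 to 52216 on RNAi arrays and 36933 to 44138 on control arrays. Of 5 excitatory neuron markers 4 were called lower, with a sum at 0 h of 8936 to 10134 on RNAi arrays and 11549 to 12924 on control arrays, but at 6 h of 8011 to 9214 on RNAi arrays and 8651 to 9009 on control arrays. Inhibitory markers were called lower in 3 of the 4 tested (sums at 6 h 4593 to 6256 with RNAi, 6366 to 9225 in control), and endothelial and fibroblast markers in 4 of the 7 tested (2796 to 3291 with RNAi, 3764 to 4118 in control). Of 10 neuronal markers 1 was called higher and 3 lower. No microglial or oligodendrocyte marker was called, and 1 of 6 proliferation markers was higher. At 6 h alone fewer were called. Of the astrocyte markers 1 was higher, and 1 neuronal, 2 excitatory, 2 inhibitory and 2 endothelial and fibroblast markers were lower. Of all tested genes 17.2% were called in either direction at 6 h. The part of these shifts in the differences of Arrdc4, Txnip, Arrdc3 and Arrdc2 was not tested.

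Whether the fall itself differed between arms was tested as an interaction, the KCl change with RNAi less the KCl change in control. Arrdc4 fell less with RNAi at 6 h, by 1.08 ± 0.19 (SE) on the log2 scale (limma, adjusted p = 0.0361), 1 of 13 genes called of 10934 (0.119%). The call held with the replicate block (adjusted p = 0.00811). It was lost on leaving out any 1 array of RNAi 0 h, control 0 h or control 6 h, 9 of the 12 arrays used (adjusted p 0.0505 to 0.106; differences over all 12 of 0.87 to 1.19). It was also lost with log2(signal + 50) in place of the floor (0.80, adjusted p = 0.0847), without the filter on dim probe sets (adjusted p = 0.0698) and with only these 4 groups fitted (adjusted p = 0.193).

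The Txnip interaction at 6 h was 0.84 ± 0.34 (SE), with a 95% interval from 0.11 to 1.56, but did not pass over all genes (limma, adjusted p = 0.506, and 0.113 with the replicate block). Arrdc3 at 0.26, Arrdc2 at 0.25 and Arrdc1 at 0.05 did not pass either (adjusted p 0.71 to 0.979). At 1 h the 5 interactions lay between -0.23 and 0.44, and limma called 0 of 10934 genes, with 363 genes at an unadjusted p under 0.05. The arrays of both arms at 0, 1 and 6 h enter the fall for which the genes were chosen. They also enter these interactions and the RNAi differences at each time, so the values are not separate from that choice.

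Across the 18 arrays Txnip correlated with Arrdc3 at r = 0.773 and with Arrdc4 at 0.751, and Arrdc3 with Arrdc4 at 0.645. Arrdc2 was nearest to Arrdc3 (0.596), and Arrdc1 to Arrdc4 (0.419). The arrays share groups and replicate numbers, and these values describe that set of arrays. The genes were chosen for a fall over the same groups, so positive values among those that fell follow from that choice. The genes most like Txnip were Zfp157 (0.977), Wdr89 (0.96), Zfp869 (0.941), Ccdc51 (0.941) and Zfp629 (0.939). Zfp157 had a 6 h change of -1.14 in the control arm, beside -2.64 for Txnip. Nearest to Arrdc4 were Sdhaf2 (0.973), Mri1 (0.971), Slc25a29 (0.963), Dtd1 (0.962) and Armc10 (0.962). Their RNAi differences at 6 h ran from 0.21 in Dtd1 to 0.65 in Armc10, below the 1.43 of Arrdc4. Arrdc3 was matched best by Mogs (0.946), Dusp12 (0.94), Tefm (0.938), Unkl (0.934) and Cstf2t (0.933). Arrdc2 and Arrdc1 had lower best values, 0.899 with Cog6 and 0.911 with MAST1.

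Genes tied to these proteins were read in 7 lists. Of 5 tested genes with other arrestin folds, 2 fell at 6 h of KCl in the RNAi arm and 3 in the control arm, and none rose (list medians -0.04 and -0.23). Over all tested genes 25.3% fell and 14.7% rose in the RNAi arm, and 25.5% fell and 16.1% rose in the control arm. The genes called were those of Vps26, whose products share the arrestin fold and belong to endosomal sorting complexes. Vps26c changed by -0.22 ± 0.08 in the RNAi arm and -0.30 ± 0.08 in the control arm, and Vps26b by -0.34 ± 0.07 and -0.23 ± 0.07 (SE; limma, adjusted p 0.00081 to 0.0338). Vps26a was at 0.07 ± 0.08 in the RNAi arm (adjusted p = 0.517) and fell by 0.24 ± 0.08 in the control arm (adjusted p = 0.0205). With the mean of all probe sets of a gene, 0 were called in the RNAi arm and 1 in the control arm. Arrb1, beta-arrestin 1, had a change of -0.04 ± 0.07 in the RNAi arm (adjusted p = 0.662) and -0.09 ± 0.07 in the control arm (adjusted p = 0.342). Averaged over times, Arrb1 was lower with RNAi by 0.68 on the log2 scale (difference -0.68 ± 0.04, adjusted p = 5.92e-09), Vps26a was lower (-0.42 ± 0.04) and Vps26c higher (0.63 ± 0.05).

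Among 10 tested NEDD4 family ligases and adaptors, the enzymes that alpha-arrestins recruit, 2 rose and 1 fell at 6 h in the RNAi arm (median -0.06), and 3 rose and 2 fell in the control arm (median 0.10). Wwp1 rose by 0.37 ± 0.09 in the RNAi arm and 0.81 ± 0.09 in the control arm, and Nedd4l by 0.90 ± 0.15 and 0.82 ± 0.15 (SE; limma, adjusted p 4.66e-06 to 0.00431). Smurf1 fell by 0.66 ± 0.06 in the RNAi arm and 0.48 ± 0.06 in the control arm. With RNAi 5 of 10 were lower on average and none higher (16.6% of tested genes were lower), among them Hecw1 (-0.74 ± 0.11), Smurf2 (-0.51 ± 0.05) and Wwp1 (-0.29 ± 0.05). The Smurf2 arrays at 0 h read 1290 to 1308 with RNAi and 1527 to 1819 in control.

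The thioredoxin and peroxiredoxin system, which Txnip touches through thioredoxin, showed 3 rises and 2 falls among 13 genes at 6 h in the RNAi arm (median -0.01), and 3 rises and 4 falls in the control arm (median 0.01). Prdx3, the mitochondrial peroxiredoxin, fell by 0.43 ± 0.05 in the RNAi arm and 0.45 ± 0.05 in the control arm, and Glrx2 by 0.21 ± 0.05 and 0.20 ± 0.05 (SE; limma, adjusted p 6.68e-06 to 0.00603). Txnrd3 was at -0.08 ± 0.06 in the RNAi arm (adjusted p = 0.302) and fell by 0.28 ± 0.06 in the control arm (adjusted p = 0.00153). Txn1, thioredoxin itself, changed by 0.01 in the control arm (adjusted p = 0.869). On average 5 were higher with RNAi and 2 lower; Txnrd1, the cytosolic thioredoxin reductase, was higher by 0.27 ± 0.03, and Prdx3 (-0.23 ± 0.03) and Glrx2 (-0.21 ± 0.03) were lower.

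Of 10 tested genes of glucose sensing and uptake, 2 rose and 3 fell at 6 h in the RNAi arm (median 0.03), and 2 rose and 2 fell in the control arm (median 0.11). Pfkfb2, which sets fructose 2,6-bisphosphate levels, fell by 1.12 ± 0.09 in the RNAi arm and 0.86 ± 0.09 in the control arm, and Hk1, a hexokinase, by 0.19 ± 0.07 and 0.29 ± 0.07 (SE; limma, adjusted p 1.1e-07 to 0.0355). Mlx rose by 0.43 ± 0.06 in the RNAi arm and 0.45 ± 0.06 in the control arm, whereas its partner Mlxip had a change of 0.13 in the control arm (adjusted p = 0.175). On average 3 genes were higher with RNAi and 2 lower. Pfkfb2, like Arrdc4, was lower in KCl and higher with RNAi, with 298 to 357 on RNAi arrays and 229 to 263 on control arrays at 6 h (averaged difference 0.58 ± 0.05, adjusted p = 2.88e-07). Its 6 h interaction of -0.26 ± 0.12 was not called (limma, adjusted p = 0.6) and had the opposite sign to the 1.08 of Arrdc4. Pfkfb3 was higher by 0.27 ± 0.05 and Slc2a8, an intracellular glucose transporter, lower (-0.31 ± 0.04).

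Txnip has been assigned to the FoxO targets in other cells. Of 16 tested FoxO factors and reported targets, 7 rose and 3 fell at 6 h in the RNAi arm, and 6 rose and 3 fell in the control arm. The list medians were 0.27 in the RNAi arm and 0.17 in the control arm, beside -0.02 over all tested genes in each. Cited2 rose by 0.84 ± 0.10 in the RNAi arm and 1.21 ± 0.10 in the control arm, Irs2 by 1.03 ± 0.11 and 0.99 ± 0.11, and Cdkn1b by 0.72 ± 0.07 and 0.85 ± 0.07 (SE; limma, adjusted p 1.89e-07 to 7.62e-06). Pik3ip1, an inhibitor of phosphoinositide 3-kinase, fell by 0.99 ± 0.13 in the RNAi arm and 0.90 ± 0.13 in the control arm. On average 6 were higher with RNAi and 3 lower, with Pik3ip1 higher by 0.43 ± 0.08, Foxo1 by 0.31 ± 0.05 and Cdkn1b by 0.23 ± 0.04. Pik3ip1 had 282 to 367 on RNAi arrays and 236 to 289 on control arrays at 6 h, so the arms overlapped there.

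Corticosteroid receptors and reported corticosteroid-induced genes gave 5 rises and 2 falls among 11 at 6 h in the RNAi arm (median 0.04), and 6 rises and 2 falls in the control arm (median 0.32). Sgk1 rose by 1.95 ± 0.18 in the RNAi arm and 2.40 ± 0.18 in the control arm, and Dusp1 by 1.73 ± 0.10 and 2.02 ± 0.10. Nr3c2, the mineralocorticoid receptor, changed by -1.28 ± 0.18 in the RNAi arm and -1.86 ± 0.18 in the control arm (SE; limma, adjusted p of these 3 genes 1.15e-09 to 3.18e-05). Klf9 (-0.64 ± 0.10), Nr3c2 (-0.58 ± 0.10) and Fkbp5 (-0.38 ± 0.06) were lower with RNAi on average, 3 of 5 lower calls against 4 higher ones. Of 9 reported partners and cargo of alpha-arrestins, 2 rose and 1 fell at 6 h in the RNAi arm (median 0.03), and 4 rose and none fell in the control arm (median 0.05). Pdcd6ip (ALIX) rose by 0.68 ± 0.07 in the RNAi arm and 0.75 ± 0.07 in the control arm, and F2r, the thrombin receptor, by 0.34 ± 0.12 and 0.73 ± 0.12. Slc2a1, a glucose transporter, was at 0.03 ± 0.13 in the RNAi arm (adjusted p = 0.865) and rose by 0.51 ± 0.13 in the control arm (adjusted p = 0.00362). F2r (0.46 ± 0.07) and Vps4a (0.43 ± 0.04) were higher with RNAi and Tsg101 lower (-0.20 ± 0.04), 3 calls each way. No gene of the 7 lists was called for an interaction, although 2 partners were called at 6 h with the replicate block.

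**Figure D4:**
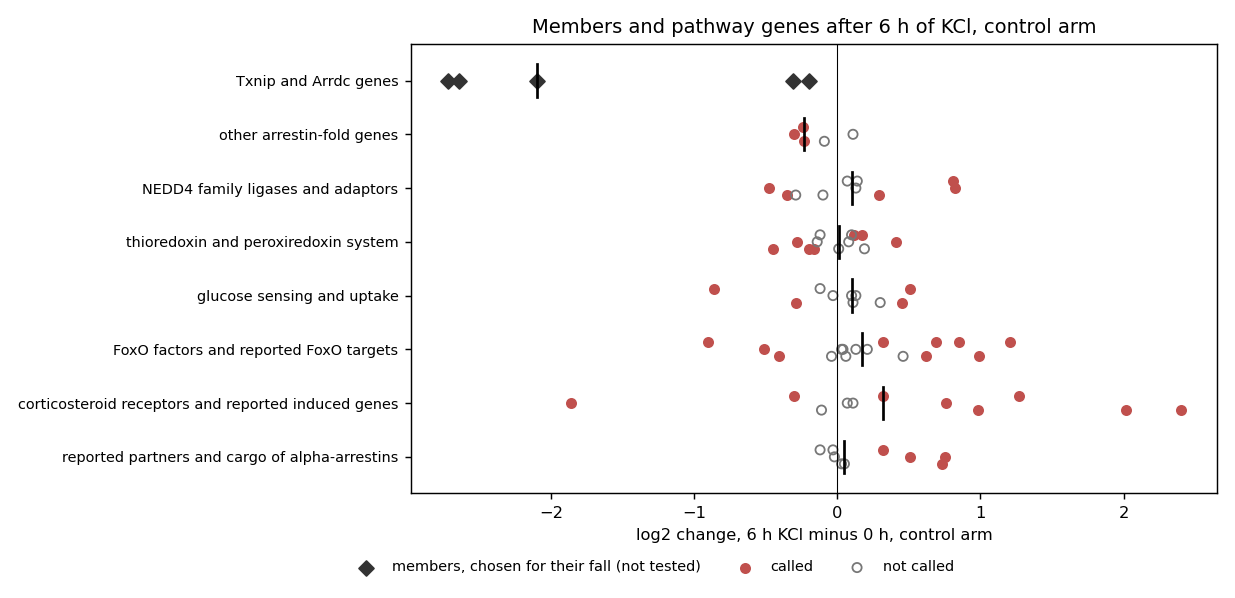
Log2 change after 6 h of KCl in the control arm for the 5 alpha-arrestin genes (diamonds, chosen for their fall and not tested) and for the genes of 7 lists (filled points called at adjusted p under 0.05, open points not called); vertical bars are medians. Txnip, Arrdc3 and Arrdc4 lie at -2.64, -2.10 and -2.72, and among the listed genes Nr3c2 at -1.86 is the lowest.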

How the data were processed

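The deposited table gives an intensity for each probe set on every array, not log-transformed; the summarisation and normalization steps are not given in the sources used here. Per the labels' protocols, total RNA was extracted with a Qiagen RNeasy Micro kit. Intensities under the table's 20th percentile (72.6) were set to that value before log2, which understates changes of dim genes. Each gene was read by its brightest probe set with 1 symbol (20832 probe sets; 436 had several) and tested where this exceeded the 40th percentile of its array on at least 3 arrays. Contrasts came from limma 3.58.1 (R 4.3.3), 1 mean per group over all 18 arrays (12 residual degrees of freedom), two-sided with Benjamini-Hochberg adjustment; the code was tested on simulated data. The number of arrays, 3 a group, limits the precision. Same-numbered arrays deviated together (45 of 45 pairs over 0.1, median correlation 0.491), so the labels' replicate numbers were taken to pair them. Main values, counts and shares come from the fit without this block, and single arrays were left out of that fit. Leaving out 1 array there keeps its same-numbered partners in, so such values also carry differences between replicates. Blocked values stand beside member calls that the block or the loss of 1 array changed.

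The genes and lists were chosen with earlier results of these data known. Named genes were the members, Mef2a and Mef2d, up to 3 of each list by adjusted p for 6 h of KCl in control and 3 for the averaged RNAi difference, the 5 genes most correlated with each member (LOC and RGD symbols passed over) and the 2 brightest markers; Txn1 and Mlxip were added after their values were seen. Alternatives changed the floor, normalization, filter, probe set, block, variance trend, arrays fitted and single arrays.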

Additional observations from a re-analysis of the deposited data

Results flagged for a closer look

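The 6 h interaction of Arrdc4 stood out because the same contrast, 6 h of KCl against 0 h, gave different changes in the 2 arms. They were -1.64 with RNAi and -2.72 in control, a difference of 1.08 on the log2 scale by the interaction term (limma, adjusted p = 0.0361). This call was lost without any 1 of 9 of the 12 arrays used (adjusted p 0.0505 to 0.106). It was also lost with log2(signal + 50), without the filter and with only the groups compared. The arrays of both arms at 0 h and 6 h also enter the fall for which Arrdc4 was chosen. Its RNAi arrays at 6 h had 277 to 430 and its control arrays 112 to 126, the control ones below the 40th percentile of their own arrays. No rule for outlying arrays was applied within groups of 3, but each array was left out in turn. Without RNAi 6 h replicate 1, the highest Arrdc4 array of its group, the RNAi-arm change was -1.85.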

How the results depend on the processing

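Over 8 other settings and single arrays left out, 484 tested values of alpha-arrestin genes kept their direction and side of the threshold, 28 lost a call, 6 gained one and 17 turned sign. Of 420 untested values of change after KCl, 8 moved by more than the spread between arrays and 13 had the opposite sign, none of those 13 larger than 0.18. The averaged RNAi calls of Txnip, Arrdc2, Arrdc3 and Arrdc4 held under all 7 settings run for them and without any 1 of 18 arrays. At 0 h the number called was 1, against 2 with probe sets averaged, 3 with the replicate block, 0 with only the groups compared and 0 to 2 without 1 array; at 1 h it was 0 to 2 and at 6 h 1 to 2 without 1 array. For the 6 h interaction it was 0 with log2(signal + 50), without the filter and with only the groups compared, and 0 to 1 without 1 array. Without the filter 2 differences of the dimmer Arrdc3 probe set were called. The Arrdc3 interaction at 1 h turned to 0.05 with probe sets averaged and ran from -0.47 to 0.02 without 1 array. Also without 1 array, Txnip at 0 h ran from -0.05 to 0.13, Arrdc1 from -0.08 to 0.12 at 0 h and -0.02 to 0.20 at 6 h, its interactions from -0.02 to 0.19 and -0.06 to 0.17, and that of Arrdc2 at 1 h from -0.11 to 0.11; the cause was not tested. Over all genes the block gave 2847, 3073 and 3084 RNAi calls at 0, 1 and 6 h (1624, 1869 and 1883 without), 126 interactions at 6 h (13 without), and 904 RNAi-arm and 601 control-arm calls for 1 h of KCl (424 and 295 without). With only the groups compared these KCl counts were 262 and 125, the 0 h RNAi count 979 and the 6 h interaction count 2. The blocked value is given beside each member call that it changed. Counts of list genes called at 6 h of KCl moved by over 1.5 times for the other arrestin-fold genes in the RNAi arm (1 with quantile normalization or only the groups compared, 0 with probe sets averaged, against 2) and in the control arm (1 with probe sets averaged, against 3). They moved likewise for NEDD4 genes and partners in the RNAi arm with the block (5 each, against 3 each), for glucose genes in the RNAi arm with only the groups compared (3, against 5), and for thioredoxin genes in the control arm with quantile normalization or only the groups compared (4, against 7).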
